A study of Mus musculus with 6 samples.

Results

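The collagen genes are the genes whose annotated mouse symbol has the form Col, a type number, the letter a and a chain number. Of the 12393 genes on the arrays 36 met that rule, and they held 58 of the 22690 probe sets. Where a gene had several, the brightest one by its mean level stood for it. The genes were sorted into 9 fibrillar, 8 network, 9 FACIT (fibril-associated) and 10 other collagens.

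The 6 Affymetrix arrays measured RNA of cells from C57BL/6 mouse embryos at embryonic day 13.5, freed with collagenase and trypsin to reduce the endoderm and cultured for 3 days in medium with 20% fetal bovine serum. The arrays formed 3 groups of 2 biological replicates. Stomach and intestine cultures came from embryos labelled Rosa26+/Barx1 or Bapx1+/Cre (WT), which carry either the silent Barx1 allele or the Cre, and the Barx1 intestine cultures came from embryos labelled Rosa26+/Barx1;Bapx1+/Cre (OE), which carry both. The labels do not say which of the 2 WT genotypes each control array had. Effects of the Cre allele and of Barx1 therefore cannot be told apart in the differences of Barx1 intestine from the controls. Cre made from the Bapx1 locus switches on Barx1, a homeodomain transcription factor of stomach mesenchyme, only in cells with a history of Bapx1 activity. The Barx1 intestine cultures can thus hold cells in which the transgene stayed silent.

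Collagens are triple helices of 3 alpha chains, each chain from its own gene or shared between types. Fibrillar collagens build the tensile fibres of connective tissue, type IV collagens form the sheet of basement membranes, FACIT collagens decorate fibrils, and type VI collagens form beaded filaments around cells. In the embryonic gut the mesenchyme makes most fibrillar collagen, while basement membranes lie beneath epithelium and around vessels, nerves and smooth muscle.

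Barx1 followed the labels. Its log2 levels, with replicate 1 before replicate 2 as for every gene here, were 9.82 and 9.79 for the stomach cultures, 5.13 and 4.93 for intestine and 8.66 and 8.79 for Barx1 intestine. All 7 smooth muscle genes listed as a check of the mesenchyme lay above the dim level of 4.74, the median of the arrays' lower quartiles, below which a level was not shown to exceed background. Of these 7 genes 3 were higher in stomach than in intestine and 0 lower (against 8.86% and 8.09% of all genes), and 1 was lower in Barx1 intestine than in stomach and 0 higher (against 2.64% and 2.56%). Markers of other cells were present too and differed between groups: the summed epithelial level ran from 12.10 to 12.85 in stomach, 13.36 to 14.48 in intestine and 12.77 to 13.41 in Barx1 intestine. The leukocyte level ran from 11.87 to 12.13, from 12.66 to 13.64 and from 10.62 to 11.52 in the same groups. The mesothelial level ran from 9.19 to 9.89, from 9.59 to 10.77 and from 9.31 to 10.03, so its ranges overlapped. Of the 5 mesothelial genes 2 were higher in stomach than in intestine and 1 lower (against 8.86% and 8.09% of all genes). The part of these cells in the collagen results was not tested, and in such bulk cultures fewer cells of a type and less RNA per cell cannot be told apart. Over the collagens, replicates differed with an SD of 0.15 for stomach, 0.27 for intestine and 0.25 for Barx1 intestine.

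Part of the collagen genes, among them both type I chains, were higher in stomach than in intestine. By limma over all genes, with a call at adjusted p under 0.05, 9 of the 36 were higher (against 8.86% of all genes) and 2 lower (against 8.09%), so 30.6% were called against a background of 16.9%. The median log2 difference of the 36 was 0.17, against 0.019 over all genes. The 2 groups of arrays did not overlap for 25 of the 36 (69.4%), a share near the background of 64.1%. Calls with a log2 difference of at least 1 numbered 2, Col1a2 and Col19a1 (against 2.23% of all genes).

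With Barx1 in the intestine, 2 of the 36 collagen genes were higher than in control intestine (5.56%, against 1.86% of all genes) and 0 lower (against 2.12%). The share called in either direction was 5.56% against a background of 3.98%, and the median difference was -0.11 against 0.021 over all genes. At an unadjusted p under 0.05 limma counted 4 higher (against 12.3% of all genes) and 7 lower (against 11.3%). Arrays did not overlap for 18 of the 36, against 52.4% of all genes, and 0 collagen calls reached a log2 difference of 1 (against 1.04%).

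Against stomach, the Barx1 intestine cultures had 7 of the 36 collagen genes lower (19.4%, against 2.64% of all genes) and 0 higher (against 2.56%), with 5.20% of all genes called in either direction. At an unadjusted p under 0.05 limma counted 1 higher (against 12.3% of all genes) and 13 lower (against 11.9%). The median difference was -0.13, against -0.00077 over all genes, and arrays did not overlap for 20 of the 36 (55.6% against 58.0%). A log2 difference of at least 1 was reached by 3 of the calls, Col1a2, Col3a1 and Col1a1 (against 0.992% of all genes). The 3 comparisons share arrays in pairs, so their values are set side by side below and not counted as separate evidence.

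**Figure D1:**
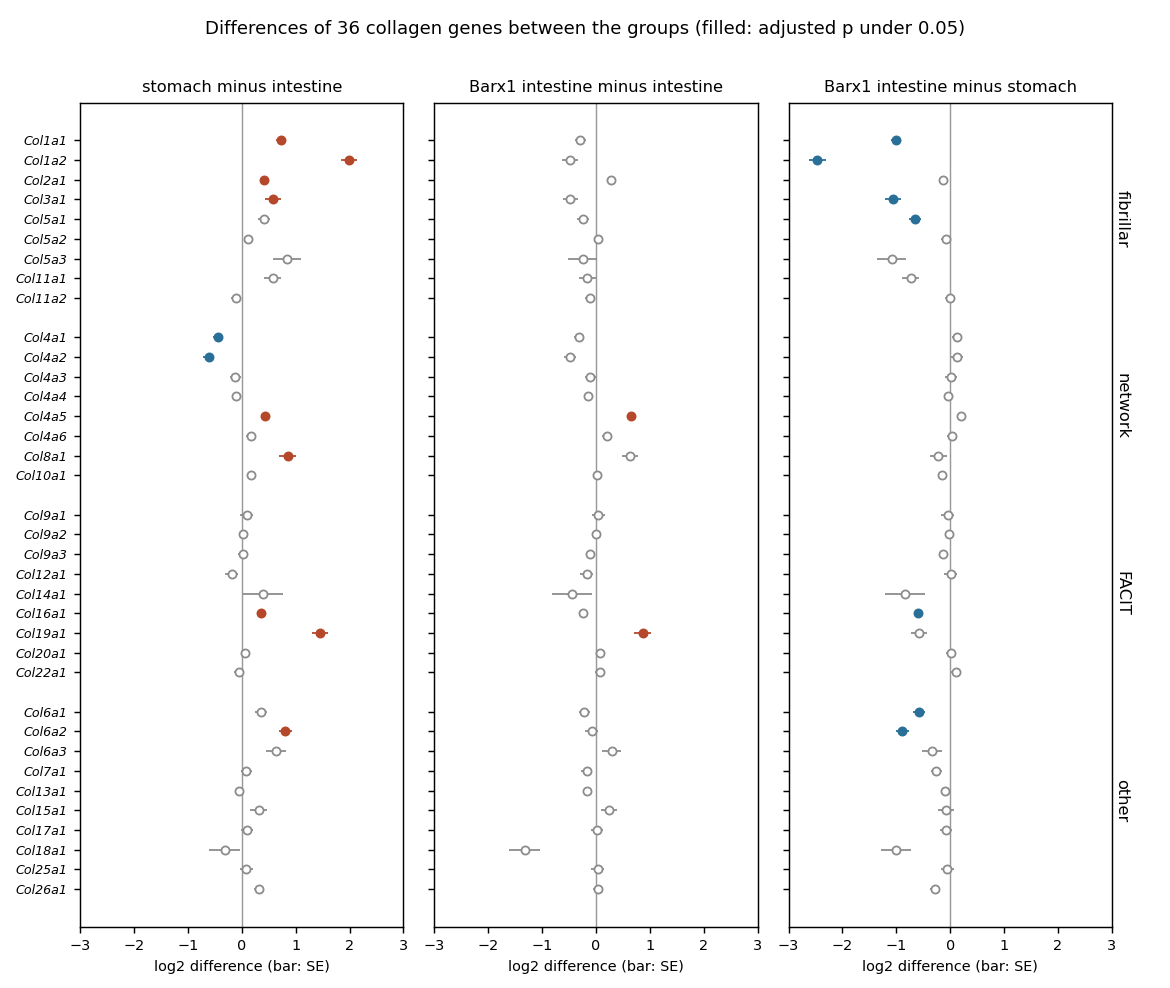
Log2 difference of each of the 36 collagen genes in the 3 comparisons, grouped by class, with bars of 1 moderated SE; filled points passed adjusted p under 0.05, red for higher and blue for lower. Filled points lie to the right for 9 genes in stomach minus intestine, and to the left for 7 genes in Barx1 intestine minus stomach.

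The fibrillar collagens were called in 1 direction in each comparison with stomach. In stomach 4 of 9 were higher than in intestine and 0 lower (against 8.86% and 8.09% of all genes), with a median difference of 0.57, and at an unadjusted p under 0.05 limma counted 7 higher (against 17.4% of all genes) and 0 lower (against 16.3%). Against control intestine the Barx1 intestine cultures had 0 of 9 called in either direction (against 3.98% of all genes), with a median of -0.24, and at an unadjusted p under 0.05 limma counted 1 higher and 3 lower (against 12.3% and 11.3% of all genes). Against stomach they had 4 of 9 lower and 0 higher, with a median of -0.74 (against 2.64% and 2.56% of all genes), and 6 lower and 0 higher at an unadjusted p under 0.05 (against 11.9% and 12.3%).

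The upstream sequences of 2 fibrillar genes called in both comparisons with stomach, and of the network gene Col4a5, called higher in both comparisons with intestine, are shown as reference points for the genes described next. They are the bases before the annotated transcription start in RefSeq (GRCm38.p6), 5′ to 3′ on the gene's own strand, with each match to CCAAT or TATAAA on either strand in capitals. Col1a2 lies at chr6:4505368-4505617, Col3a1 at chr1:45311288-45311537 and Col4a5 at chrX:141475169-141475369, all on the + strand, and the Col4a5 window is shorter because its remaining bases lie in an annotated transcript of the gene.
Col1a2: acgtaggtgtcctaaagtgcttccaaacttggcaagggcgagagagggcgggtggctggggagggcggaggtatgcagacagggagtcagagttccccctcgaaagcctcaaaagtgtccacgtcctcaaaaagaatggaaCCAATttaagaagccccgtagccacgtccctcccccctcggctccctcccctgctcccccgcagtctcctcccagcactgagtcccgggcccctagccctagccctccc
Col3a1: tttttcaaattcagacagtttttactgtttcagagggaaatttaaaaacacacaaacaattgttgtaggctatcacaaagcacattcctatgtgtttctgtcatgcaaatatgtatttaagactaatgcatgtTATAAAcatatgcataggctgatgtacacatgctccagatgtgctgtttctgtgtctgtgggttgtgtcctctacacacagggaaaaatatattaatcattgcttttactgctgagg
Col4a5: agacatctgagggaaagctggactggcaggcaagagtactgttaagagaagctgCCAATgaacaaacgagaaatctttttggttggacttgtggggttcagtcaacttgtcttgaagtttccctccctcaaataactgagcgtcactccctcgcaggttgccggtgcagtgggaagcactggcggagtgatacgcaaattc
The Col1a2 and Col4a5 windows each hold 1 CCAAT box and the Col3a1 window 1 TATAAA.

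Of the 36 collagen genes 27 had such a promoter entry and 9 had none. Each motif was searched on both strands. CCAAT, the box bound by nuclear factor Y, occurred in the 250 bases before the start of 12 of the 27 (44.4%), against 37.5% of 27025 genes. TATAAA occurred in 5 (18.5%), against 14.3%. TAATTG, a core that many homeodomain proteins can bind, occurred in 2 (7.41%), against 8.3%. Both were collagens with 0 calls here, Col11a2 and Col17a1. CCAAT and TAATTG on opposite strands can share letters, and a gene with several starts counted once when any window held the letters. These are letter matches and not binding sites.

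Type I collagen, the main fibre of most connective tissue, is built of chains from Col1a1 and Col1a2. The log2 level of Col1a2 was 14.23 and 14.32 in stomach, 12.13 and 12.47 in intestine, against 11.66 and 11.97 in Barx1 intestine. Every stomach array was higher than every other array, and both Barx1 intestine arrays were below both intestine arrays. Stomach exceeded intestine by 1.98 (SE 0.15, adjusted p = 0.00326), a 3.95-fold difference. This was the 1 collagen call of that comparison that passed in all 6 fits leaving out 1 array (adjusted p at most 0.0368). Barx1 intestine was below stomach by 5.51-fold (log2 difference -2.46, SE 0.15, adjusted p = 0.00832). That call was lost without stomach replicate 1 (adjusted p = 0.0658), stomach replicate 2 (adjusted p = 0.0841) or Barx1 intestine replicate 1 (adjusted p = 0.055). In the 6 fits the difference stayed between -2.62 and -2.31, and in those 3 only 12, 0 and 5 of the 12393 genes passed. The difference of Barx1 intestine from intestine, -0.48, was not called (95% confidence interval -0.85 to -0.11, adjusted p = 0.133).

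Col1a1 read 11.37 and 11.40 in stomach, 10.65 and 10.67 in intestine, against 10.24 and 10.50 in Barx1 intestine. The groups stood in the same order as for Col1a2, without overlap. Col1a1 was higher in stomach than in intestine by 0.72 (SE 0.10, adjusted p = 0.0094), a call lost without stomach replicate 1 (adjusted p = 0.0669) or stomach replicate 2 (adjusted p = 0.0786). It was lower in Barx1 intestine than in stomach by a log2 difference of -1.01 (SE 0.10, adjusted p = 0.0128), a call lost without stomach replicate 1 (adjusted p = 0.0922), stomach replicate 2 (adjusted p = 0.116) or Barx1 intestine replicate 1 (adjusted p = 0.0583). The difference from control intestine was -0.29 and not called (adjusted p = 0.149). The excess of stomach over intestine was thus larger for Col1a2 than for Col1a1 by 1.26 on the log2 scale, a contrast of 2 probe sets that may respond differently and that was not tested.

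Col3a1, whose chain forms the fine fibrils of distensible organs such as gut and vessels, read 13.06 and 13.16 in stomach, 12.53 and 12.52 in intestine, against 11.83 and 12.27 in Barx1 intestine. The groups again did not overlap, and the Barx1 intestine replicates lay farthest apart. The excess of stomach over intestine was 0.58 (SE 0.14, adjusted p = 0.0474), a call lost without either stomach or either intestine array (adjusted p = 0.128 to 0.204). It was also lost after a second quantile normalisation (adjusted p = 0.0508). Barx1 intestine differed from stomach by -1.06 (SE 0.14, adjusted p = 0.0252), lost without stomach replicate 1 (adjusted p = 0.125), stomach replicate 2 (adjusted p = 0.173) or Barx1 intestine replicate 1 (adjusted p = 0.0593). From intestine it differed by -0.47 without a call (95% confidence interval -0.83 to -0.12, adjusted p = 0.127).

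Type V and type XI collagens nucleate fibrils and limit their width. Col5a1 read 11.97 and 12.08 in stomach, 11.60 and 11.63 in intestine, against 11.23 and 11.53 in Barx1 intestine, with no overlap of groups. It was lower in Barx1 intestine than in stomach (difference -0.65, SE 0.11, adjusted p = 0.0373), a call that remained only without Barx1 intestine replicate 2 and rose to adjusted p = 0.0527 to 0.221 without any 1 of the other arrays. Its excess of stomach over intestine, 0.41, just missed the threshold (adjusted p = 0.0562). Its partner Col5a2, which lies next to Col3a1 on chromosome 1, read 13.64 and 13.75, 13.57 and 13.58, and 13.52 and 13.72 in the 3 groups. These levels lay within 0.23 of each other, and the largest of their differences was 0.12 (95% confidence interval -0.10 to 0.33). The dimmer probe set of Col5a2 gave 0.41 between stomach and intestine, past the threshold (adjusted p = 0.0344 over all probe sets). Between Barx1 intestine and stomach it gave -0.43, not past it (adjusted p = 0.0592). By the brightest probe sets a call was made for Col3a1 and not for its neighbour Col5a2. The difference between the genes was not tested.

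Col11a1 read 10.53 and 10.75 in stomach, 10.21 and 9.92 in intestine, against 9.75 and 10.06 in Barx1 intestine. The stomach arrays were above all others, while those of the 2 intestine groups overlapped. Its differences of 0.57 from intestine to stomach and -0.74 from stomach to Barx1 intestine were not called (adjusted p = 0.0576 and 0.0578). The dimmer probe set of Col11a1 passed the threshold in both, with 0.67 and -0.77 (adjusted p = 0.0230 and 0.0358 over all probe sets). Col5a3 showed wider spread, with 6.19 and 5.87 in stomach, 5.37 and 5.02 in intestine, against 4.58 and 5.31 in Barx1 intestine. Its differences of 0.84 and -1.09 in the same comparisons were not called (adjusted p = 0.0875 and 0.0789). The other probe set of Col5a3 had the opposite sign in both, but read between 3.08 and 3.61, below the dim level on all arrays.

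Of the cartilage fibril genes, Col2a1 and Col11a2 were low in every group, unlike Col11a1. Col2a1, the main fibrillar collagen of cartilage, read 5.42 and 5.40 in stomach, 4.92 and 5.08 in intestine, against 5.29 and 5.27 in Barx1 intestine. It was the 1 called fibrillar gene whose Barx1 intestine arrays lay above those of intestine. Intestine lay below stomach, and the stomach excess was 0.41 (SE 0.07, adjusted p = 0.0185), a call lost without stomach replicate 1 (adjusted p = 0.114), stomach replicate 2 (adjusted p = 0.107) or intestine replicate 1 (adjusted p = 0.0539). Barx1 intestine exceeded intestine by 0.28 without a call (adjusted p = 0.0896). Col11a2 read between 5.18 and 5.47 on all arrays and had 0 calls.

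Acan, the aggregating proteoglycan of cartilage, stood beside Col2a1 in the list of cartilage matrix genes and read 7.65 and 7.73 in stomach, 4.33 and 4.57 in intestine, against 4.69 and 4.31 in Barx1 intestine. Both other groups lay below the dim level, so the size of its differences from them is a lower bound. Its difference of stomach from intestine was 3.24 (SE 0.15, adjusted p = 0.00107), and that of Barx1 intestine from stomach was -3.19 (SE 0.15, adjusted p = 0.00408), the latter lost without stomach replicate 2 (adjusted p = 0.0582). Of the 9 cartilage matrix genes 4 reached the dim level in any group. Acan was the 1 called, higher in stomach than in intestine (against 8.86% of all genes) and lower in Barx1 intestine than in stomach (against 2.64%). The median difference of the list between stomach and intestine was 0.098, against 0.019 over all genes.

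**Figure D2:**
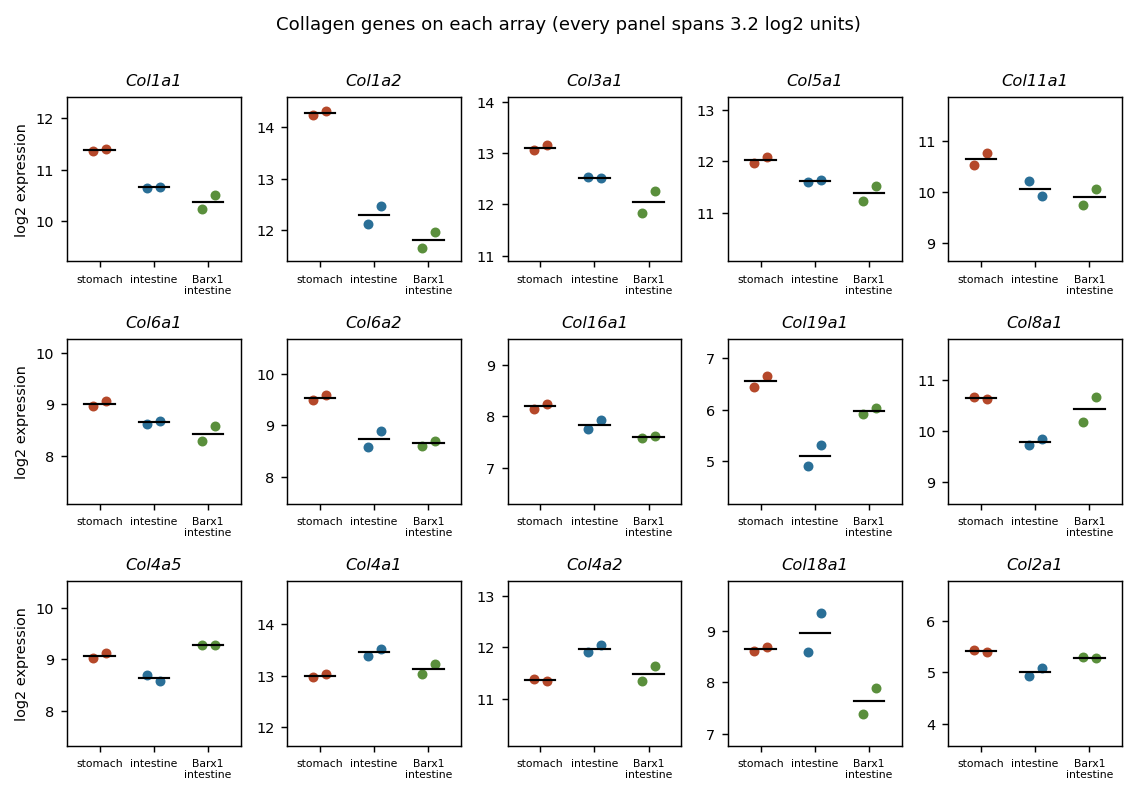
Log2 level of 15 collagen genes on each of the 6 arrays; points are arrays, black lines are the means of 2 arrays, and every panel spans the same number of log2 units. Col1a2 and Col1a1 fall from stomach through intestine to Barx1 intestine, Col19a1 and Col4a5 are lowest in intestine, and Col4a1 and Col4a2 are highest in intestine.

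The network collagens moved in both directions, with a median difference of 0.029 between stomach and intestine, -0.043 between Barx1 intestine and intestine and 0.020 between Barx1 intestine and stomach. In stomach 2 of 8 were higher than in intestine and 2 lower (against 8.86% and 8.09% of all genes). In Barx1 intestine 1 was higher than in intestine (against 1.86%), and 0 were called against stomach (5.20%), where limma counted 1 higher and 0 lower at an unadjusted p under 0.05 (12.3% and 11.9%). Of the 8 genes Col4a3, Col4a4, Col4a6 and Col10a1 stayed below the dim level in every group.

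Col4a1 and Col4a2 encode the chains of the type IV collagen found in every basement membrane and lie head to head on chromosome 8, transcribed in opposite directions. Their 300-base promoter windows overlap by 78 bases. Col4a1 read 12.98 and 13.04 in stomach, 13.39 and 13.52 in intestine, against 13.04 and 13.23 in Barx1 intestine. Col4a2 read 11.38 and 11.34, 11.90 and 12.04, and 11.35 and 11.62 in the same groups. For both genes the intestine arrays were the highest, above every array of the other groups, and the stomach and Barx1 intestine arrays overlapped.

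Col4a2 was lower in stomach than in intestine by a difference of -0.61 (SE 0.11, adjusted p = 0.0188), a call lost without stomach replicate 1 (adjusted p = 0.101), stomach replicate 2 (adjusted p = 0.114) or intestine replicate 2 (adjusted p = 0.0657). Col4a1 was lower by -0.45 (SE 0.09, adjusted p = 0.0259), lost without either stomach or either intestine array (adjusted p = 0.0531 to 0.14). In Barx1 intestine the differences from intestine were -0.48 for Col4a2 and -0.32 for Col4a1, and neither was called (adjusted p = 0.0682 and 0.105). From stomach they were 0.13 for Col4a2 and 0.12 for Col4a1, with 95% confidence intervals of -0.14 to 0.39 and -0.09 to 0.34. The pair kept close differences in all 3 comparisons. That of Col4a2 minus that of Col4a1 was -0.165 for stomach minus intestine, -0.160 for Barx1 intestine minus intestine and 0.0049 for Barx1 intestine minus stomach.

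Markers of cells that lie on basement membranes differed between the same groups. The summed log2 level of 8 endothelial genes was 9.06 and 9.05 in stomach, 9.93 and 9.96 in intestine, against 9.40 and 9.61 in Barx1 intestine. The 4 below the dim level in every group, named after their values were seen, were Pecam1, Cdh5, Tek and Tie1. Of the 8 genes 4 were lower in stomach than in intestine and 0 higher (against 8.09% and 8.86% of all genes), with 5 lower and 0 higher at an unadjusted p under 0.05 by limma (16.3% and 17.4%). Of the 4 lower genes 1 was Pecam1, so its difference is between levels not shown to exceed background. In Barx1 intestine 2 of the 8, Pecam1 among them, were lower than in intestine and 0 higher (against 2.12% and 1.86%). Against stomach 2 were higher in Barx1 intestine and 0 lower (2.56% and 2.64%). Epithelial genes, whose sums are given above, had 2 of 10 lower in stomach and 0 higher (against 8.09% and 8.86%), with 8 lower and 0 higher at an unadjusted p under 0.05 (16.3% and 17.4%). In Barx1 intestine 1 of the 10 epithelial genes was lower than in intestine and 0 higher (2.12% and 1.86%), and 0 were called against stomach (5.20%). The part of either cell type in the levels of Col4a1 and Col4a2 was not tested.

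Col4a5, an X-linked chain of specialised basement membranes that also occurs around smooth muscle, went the other way. It read 9.02 and 9.12 in stomach, 8.70 and 8.57 in intestine, against 9.28 and 9.28 in Barx1 intestine. The groups did not overlap, and intestine was the lowest. Stomach exceeded intestine by 0.44 (SE 0.07, adjusted p = 0.0163), a call lost without stomach replicate 1 (adjusted p = 0.0715), stomach replicate 2 (adjusted p = 0.11) or intestine replicate 2 (adjusted p = 0.0519).

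Barx1 intestine exceeded intestine in Col4a5 by 0.65 (SE 0.07, adjusted p = 0.0196), 1.56-fold. That call remained without intestine replicate 1 alone. Leaving out any other single array gave an adjusted p of 0.0583 to 0.107. The difference of 0.21 from stomach was not called (adjusted p = 0.163). The second probe set of the gene had differences of 0.25 from intestine to stomach, not past the threshold, and 0.53 from intestine to Barx1 intestine, past it.

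Col8a1 encodes a short-chain collagen of vessel walls and of the membrane behind the corneal endothelium. It read 10.66 and 10.63 in stomach, 9.72 and 9.85 in intestine, against 10.18 and 10.66 in Barx1 intestine. Both intestine arrays were the lowest, and Barx1 intestine overlapped with stomach. By limma the stomach level was above that of intestine by 0.85 (SE 0.16, adjusted p = 0.0219), a call lost without either stomach or either intestine array (adjusted p = 0.057 to 0.117). The difference of Barx1 intestine from intestine was 0.63 (95% confidence interval 0.24 to 1.02, adjusted p = 0.0881) and that from stomach -0.22 (-0.61 to 0.17), and neither was called.

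Among the FACIT collagens 2 of 9 were higher in stomach than in intestine and 0 lower (against 8.86% and 8.09% of all genes), and limma counted the same numbers at an unadjusted p under 0.05, a share near the 17.4% of all genes that were higher. In Barx1 intestine 1 was higher than in intestine (against 1.86%), and 1 was lower than in stomach (against 2.64%). The class medians were 0.061, 0.0030 and -0.045.

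Col19a1, a collagen found in embryonic muscle and known from mice lacking it for a role in the smooth muscle of the lower oesophageal sphincter, showed the largest difference of the class. It read 6.45 and 6.66 in stomach, 4.90 and 5.31 in intestine, against 5.91 and 6.03 in Barx1 intestine. The groups did not overlap, and the intestine lay little above the dim level. The level in stomach was above that in intestine by 1.45 (SE 0.15, adjusted p = 0.00542), 2.73-fold, a call lost without stomach replicate 2 (adjusted p = 0.0508). Barx1 intestine exceeded intestine by 0.87 (SE 0.15, adjusted p = 0.046), a call that remained without intestine replicate 2 alone and reached an adjusted p of 0.0637 to 0.171 without any other single array.

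Barx1 intestine stayed below stomach in Col19a1 by a difference of -0.58, which was not called (adjusted p = 0.0917). Its dimmer probe set, with all arrays below the dim level, gave differences of 0.40 from intestine to stomach, just past the threshold, and 0.07 from intestine to Barx1 intestine. The second value did not pass, so the Barx1 intestine call rests on the brighter probe set. Col9a1, the neighbour of Col19a1 on chromosome 1, read between 4.76 and 5.07 on all arrays and had 0 calls. Skeletal muscle genes, another source of Col19a1 in embryos, had summed levels of 8.41 and 8.30 in stomach, 8.05 and 8.04 in intestine, against 8.06 and 8.01 in Barx1 intestine. Of those 6 genes 3 reached the dim level in any group. Between stomach and intestine 1 of the 6 was higher in stomach and 0 lower (against 8.86% and 8.09% of all genes), and the differences ran from -0.46 to 0.71. In Barx1 intestine 0 were called against intestine (3.98%), and 1 was lower than in stomach and 0 higher (2.64% and 2.56%). The part of these genes' cells in the Col19a1 result was not tested.

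Col16a1, which links fibrils to the surface of smooth muscle cells and fibroblasts, read 8.15 and 8.24 in stomach, 7.74 and 7.92 in intestine, against 7.57 and 7.62 in Barx1 intestine. The groups did not overlap and followed the order of Col1a1 and Col1a2. Stomach exceeded intestine by 0.36 (SE 0.08, adjusted p = 0.0368), a call that remained without intestine replicate 2 alone and otherwise reached an adjusted p of 0.0651 to 0.188. Barx1 intestine was below stomach by -0.60 (SE 0.08, adjusted p = 0.0252), lost without either stomach or either Barx1 intestine array (adjusted p = 0.0904 to 0.178).

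The remaining FACIT genes had 0 calls in any comparison. Col14a1, of dense connective tissue, read 8.88 and 9.24 in stomach, 8.15 and 9.18 in intestine, against 7.93 and 8.52 in Barx1 intestine, so its replicates differed by up to 1.02 and the groups overlapped. Col12a1, which marks fibrils under tension, read between 8.64 and 9.02 on all arrays. Col9a3 read between 5.61 and 5.89, Col20a1 between 5.01 and 5.22 and Col22a1 between 4.64 and 4.93, while Col9a2 stayed below the dim level in every group.

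Of the 10 other collagens 1 was higher in stomach than in intestine and 0 lower, near the background of 8.86% and 8.09%, with 4 higher and 0 lower at an unadjusted p under 0.05 by limma (17.4% and 16.3% of all genes). In Barx1 intestine 0 were called against intestine (3.98%), with 0 higher and 1 lower at an unadjusted p under 0.05 (12.3% and 11.3%). Against stomach 2 were lower and 0 higher (2.64% and 2.56%), with 5 lower and 0 higher unadjusted (11.9% and 12.3%). Both called genes were chains of type VI collagen. Its 3 chains are assembled into 1 molecule in the cell, so their genes can be read together.

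Col6a2 read 9.48 and 9.59 in stomach, 8.57 and 8.89 in intestine, against 8.59 and 8.70 in Barx1 intestine. Its stomach arrays stood above all others, and the intestine groups overlapped. The excess of stomach over intestine was 0.81 (SE 0.12, adjusted p = 0.0125), a call lost without stomach replicate 1 (adjusted p = 0.0678) or stomach replicate 2 (adjusted p = 0.0926). Barx1 intestine was below stomach by -0.89 (SE 0.12, adjusted p = 0.0237), lost without either stomach or either Barx1 intestine array (adjusted p = 0.0883 to 0.17). The difference between the intestine groups was -0.08 (95% confidence interval -0.38 to 0.21).

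Col6a1, which adjoins Col6a2 on chromosome 10, read 8.96 and 9.06 in stomach, 8.62 and 8.68 in intestine, against 8.29 and 8.57 in Barx1 intestine. The groups did not overlap. Its deficit of -0.58 in Barx1 intestine against stomach (SE 0.10, adjusted p = 0.0435) was lost in all 6 fits that left out 1 array (adjusted p = 0.0559 to 0.24), and its excess of 0.36 in stomach over intestine was not called (adjusted p = 0.0721). Col6a3 read 12.27 and 12.58 in stomach, 11.73 and 11.85 in intestine, against 11.85 and 12.32 in Barx1 intestine. It had 0 calls, with differences of 0.63 (adjusted p = 0.0668), 0.29 (adjusted p = 0.388) and -0.34 (adjusted p = 0.313) in the order of comparisons used above. Barx1 intestine thus lay above intestine for Col6a3 and below it for the other 2 chains, in differences that were not called.

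Col18a1, the multiplexin whose end fragment is endostatin and which sits in basement membranes, read 8.60 and 8.69 in stomach, 8.58 and 9.35 in intestine, against 7.39 and 7.89 in Barx1 intestine. Both Barx1 intestine arrays were below all others. The difference from intestine, -1.32, was the lowest of the 36 genes in that comparison, yet with an SE of 0.28 it missed the threshold (95% confidence interval -2.03 to -0.62, adjusted p = 0.0649). It passed without intestine replicate 1 (adjusted p = 0.0334). The dimmer probe set of Col18a1 fell by 1.12 on the log2 scale, with an adjusted p of 0.042 over all probe sets. Against stomach the difference was -1.01 without a call (adjusted p = 0.104), while the dimmer probe set gave -0.99, past the threshold (adjusted p = 0.0475 over all probe sets).

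Marker levels of leukocytes and of part of the enteric genes were also low in Barx1 intestine. Of 9 leukocyte genes 4 were lower there than in intestine and 0 higher (against 2.12% and 1.86% of all genes), with 9 lower and 0 higher at an unadjusted p under 0.05 (11.3% and 12.3%). The summed level of 7 genes of enteric neurons and glia was 10.42 and 10.33 in stomach, 10.70 and 11.03 in intestine, against 9.60 and 9.80 in Barx1 intestine, so the Barx1 intestine arrays were the lowest, as for Col18a1. Of these 7 genes 3 were lower in Barx1 intestine than in intestine and 0 higher (against 2.12% and 1.86%). At an unadjusted p under 0.05 limma counted 4 lower and 1 higher (against 11.3% and 12.3%), and the differences ran from -3.17 to 0.37. The part of these cells in the level of Col18a1 was not tested.

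Col15a1, the second multiplexin, read between 5.31 and 5.80, Col7a1, of anchoring fibrils, between 7.38 and 7.81, and the transmembrane collagen gene Col25a1 between 6.32 and 6.60. These 3 had 0 calls. Col13a1, Col17a1 and Col26a1 were below the dim level in every group, which with Col9a2 and the 4 network genes made 8 of 36 collagens without a level shown to exceed background, and 0 of the 8 were called. In all, 13 of the 36 collagen genes were called in at least 1 comparison and 23 in none.

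The second probe sets served as a further reading of the same arrays. Of the 36 genes 19 had more than 1 probe set, and all probe sets of a gene had the same sign for 17 of them between stomach and intestine, 16 between Barx1 intestine and intestine and 16 between Barx1 intestine and stomach. The genes that differed in sign were Col5a2, Col5a3, Col9a3 and Col20a1, and 0 of them were called. For Col5a3, Col9a3 and Col20a1 the dimmer probe sets lay below the dim level on every array, so their signs are not measured. Of the genes called in stomach against intestine 8 had another probe set, which had the same sign in all 8, was past the threshold in 7 and lay farther from 0 in 5. The 7 include Col19a1, whose other probe set lay below the dim level on every array. Against stomach, Barx1 intestine had 5 such genes, with another probe set past the threshold in all 5.

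The dimmer probe sets of Col1a2 and Col3a1 gave larger differences. For Col1a2 they were 2.90 between stomach and intestine and -3.52 between Barx1 intestine and stomach, against 1.98 and -2.46 with the brighter one. For Col3a1 they were 0.93 and -1.68, against 0.58 and -1.06. The brighter probe set of Col1a2 reached 14.32, near the maximum of that array at 14.67.

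**Figure D3:**
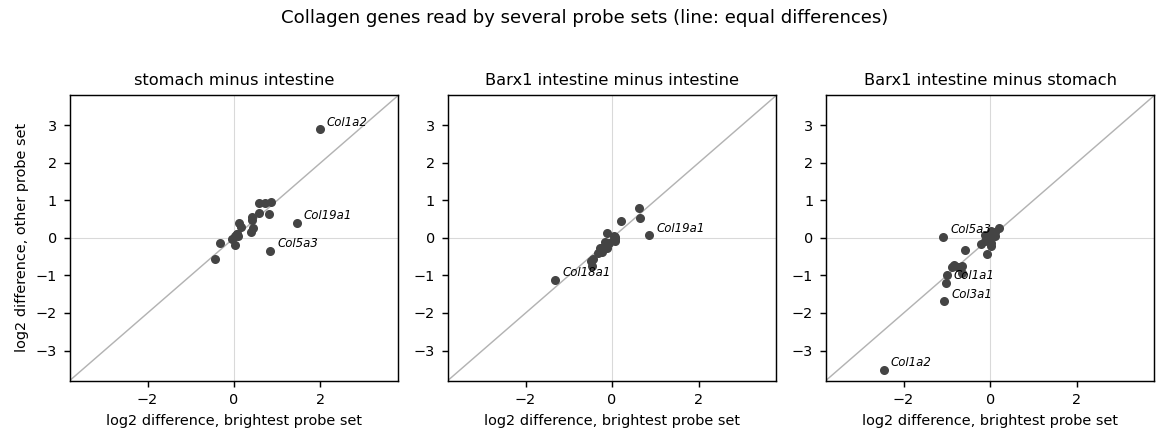
Log2 difference of the dimmer probe sets (vertical axis) against that of the brightest probe set (horizontal axis) of the 19 collagen genes with more than 1, with the line of equality. The Col1a2 points lie farther from 0 on the vertical axis (2.90 and -3.52) than on the horizontal one (1.98 and -2.46).

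Genes that fold, process, bind or regulate collagen were read from lists. Of 15 measured enzymes and chaperones of collagen folding 2 were higher in stomach than in intestine and 1 lower (against 8.86% and 8.09% of all genes, so the share called was near the background of 16.9%). P3h3, a member of the prolyl 3-hydroxylase family, read 8.56 and 8.64 in stomach, 7.97 and 8.03 in intestine, against 8.25 and 8.34 in Barx1 intestine (stomach minus intestine 0.60, adjusted p = 0.00628). P3h4, its non-enzymatic partner in lysine hydroxylation of collagen, read 10.78 and 10.87, 10.34 and 10.32, and 10.75 and 10.75. Its intestine arrays were the lowest, and it was higher in stomach (0.50, adjusted p = 0.00745) and in Barx1 intestine (0.43, adjusted p = 0.0283) than in intestine. Pdia3, a disulphide isomerase, was lower in stomach (-0.34, adjusted p = 0.0157). Without stomach replicate 2 the stomach calls of P3h3 (adjusted p = 0.0603) and P3h4 (adjusted p = 0.0682) were lost, as was that of Pdia3, which also needed stomach replicate 1 and intestine replicate 1 (adjusted p up to 0.106). The Barx1 intestine call of P3h4 was lost in all 6 fits that left out 1 array (adjusted p up to 0.136). Against stomach 0 of the 15 were called in Barx1 intestine (against 5.20% of all genes). At an unadjusted p under 0.05 limma counted 0 higher and 5 lower (against 12.3% and 11.9%).

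Of 5 measured genes of procollagen processing 2 were higher in stomach (against 8.86% of all genes) and in Barx1 intestine (1.86%) than in intestine, and 0 lower. Tll1, a protease that cuts the C-propeptide, read 10.07 and 9.99 in stomach, 9.63 and 9.34 in intestine, against 10.55 and 10.40 in Barx1 intestine. Pcolce2, an enhancer of that cut, read 9.32 and 9.15, 8.47 and 8.07, and 9.28 and 9.21. In both genes the intestine arrays lay below all others. The differences of stomach from intestine were 0.55 for Tll1 (adjusted p = 0.0301) and 0.97 for Pcolce2 (adjusted p = 0.0124). Those of Barx1 intestine from intestine were 0.99 for Tll1 (adjusted p = 0.0204) and 0.98 for Pcolce2 (adjusted p = 0.0308). The stomach call of Pcolce2 was lost without either stomach array (adjusted p up to 0.0831), and that of Tll1 remained without intestine replicate 1 alone (adjusted p otherwise up to 0.152). The Barx1 intestine call of Tll1 was lost without either stomach or either Barx1 intestine array (adjusted p up to 0.117), and that of Pcolce2 also without intestine replicate 2 (adjusted p up to 0.157). Against stomach 0 of the 5 were called (against 5.20% of all genes). At an unadjusted p under 0.05 limma counted 1 higher and 0 lower (against 12.3% and 11.9%).

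Of 6 measured collagen receptors 2 were higher in stomach than in intestine and 1 lower (against 8.86% and 8.09% of all genes). Mrc2, the endocytic receptor that clears collagen fragments, read 7.88 and 8.03 in stomach, 7.09 and 7.01 in intestine, against 7.20 and 7.47 in Barx1 intestine, with stomach above all others. It was higher in stomach than in intestine by 0.91 (adjusted p = 0.00745) and lower in Barx1 intestine than in stomach (-0.62, adjusted p = 0.0407). Ddr2, a receptor tyrosine kinase for fibrillar collagen, was higher in stomach than in intestine by 0.62 (adjusted p = 0.0209). Lair1, an inhibitory receptor of immune cells, was lower in stomach (-0.72, adjusted p = 0.0207) and in Barx1 intestine (-0.96, adjusted p = 0.0271) than in intestine. Its mean levels in stomach and Barx1 intestine, 4.65 and 4.41, lay below the dim level, so the size of both differences is a lower bound. The stomach call of Mrc2 was lost without stomach replicate 2 (adjusted p = 0.0624), that of Ddr2 without either stomach or either intestine array (adjusted p up to 0.105), and that of Lair1 without either stomach array or intestine replicate 2 (adjusted p up to 0.114). The Barx1 intestine call of Mrc2 was lost in all 6 such fits (adjusted p up to 0.228), and that of Lair1 remained without intestine replicate 1 alone (adjusted p otherwise up to 0.142). The leukocyte sums above were highest in intestine as well, and their part in the level of Lair1 was not tested.

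Of 11 measured regulators of collagen genes 1 was higher in stomach than in intestine and 0 lower, near the background of 8.86% and 8.09%. At an unadjusted p under 0.05 limma counted 2 higher and 2 lower, near the 17.4% and 16.3% of all genes. In Barx1 intestine 3 were lower than in intestine (against 2.12%) and 2 lower than in stomach (against 2.64%). Creb3l1, also called OASIS, a membrane-bound transcription factor that activates type I collagen in bone, read 8.67 and 8.70 in stomach, 7.65 and 7.65 in intestine, against 7.45 and 7.67 in Barx1 intestine. Its stomach arrays stood a whole log2 unit above the rest, and the intestine groups overlapped. The difference of stomach from intestine was 1.04 (SE 0.08, adjusted p = 0.00369) and passed in all 6 fits without 1 array. That of Barx1 intestine from stomach was -1.13 (SE 0.08, adjusted p = 0.0114) and was lost without either stomach array or Barx1 intestine replicate 1 (adjusted p up to 0.107).

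Tgfb2, a ligand that raises matrix production in many cells, read 10.35 and 10.51 in stomach, 10.43 and 10.34 in intestine, against 9.60 and 9.82 in Barx1 intestine. It was lower in Barx1 intestine than in intestine (-0.67, adjusted p = 0.0352) and than in stomach (-0.71, adjusted p = 0.0268). Sox6 (-0.65, adjusted p = 0.0397) and Sox5 (-0.37, adjusted p = 0.043), partners of Sox9 in the activation of Col2a1, were lower in Barx1 intestine than in intestine. Sox5 read between 4.43 and 4.84 on all arrays, near the dim level. The calls of Tgfb2, Sox5 and Sox6 against intestine were lost in all 6 fits that left out 1 array (adjusted p up to 0.175), and that of Tgfb2 against stomach without either stomach or either Barx1 intestine array (adjusted p up to 0.178).

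**Figure D4:**
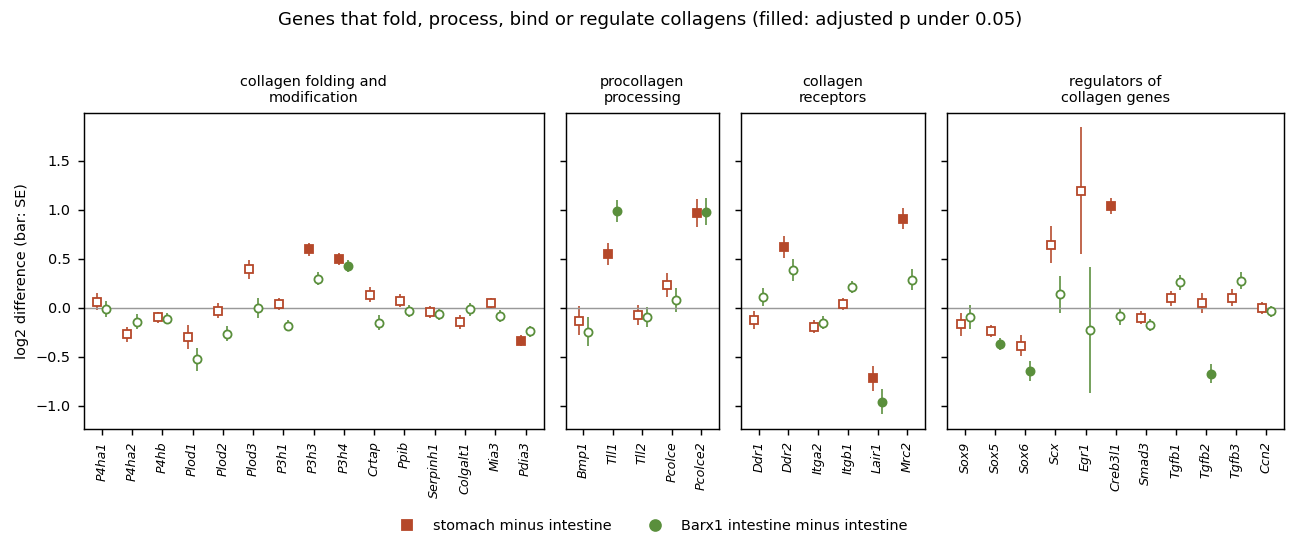
Log2 difference of genes for collagen folding, processing, binding and regulation, with squares for stomach minus intestine and circles for Barx1 intestine minus intestine; filled symbols passed adjusted p under 0.05. Tll1 and Pcolce2 have both symbols filled and above the line at 0, and Creb3l1 has a filled square near 1.04 and an open circle near 0.

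Leaving out 1 array of the groups compared lowered the counts of called genes over all genes as well as among the collagens, but for Col18a1 below. Between stomach and intestine the 9 higher and 2 lower collagen genes became 2 and 0 when stomach replicate 1 was left out, while the calls over all genes went from 2100 to 388. Leaving out stomach replicate 2 in its place gave 1 and 0, with 281 over all genes. They became 5 and 1 without intestine replicate 1 and 6 and 0 without intestine replicate 2, with 1223 and 1401 over all genes. For Barx1 intestine against stomach the 7 lower collagen genes became 0 without stomach replicate 1, stomach replicate 2 or Barx1 intestine replicate 1, where 12, 0 and 5 of all genes passed in place of 644. They became 4 without Barx1 intestine replicate 2, where 113 passed. For Barx1 intestine against intestine the 2 higher collagen genes became 1 without either intestine array (466 and 155 over all genes, in place of 493) and 0 without either stomach array (50) or Barx1 intestine replicate 1 or 2 (53 and 85). In that comparison 1 gene, Col18a1, became lower without intestine replicate 1. A group left with 1 array was assumed to vary like the others, and 0 of the called genes changed sign.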

How the data were processed

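RNA of 6 cultures was hybridised to Affymetrix 3′ arrays. The authors deposited 1 log2 expression value per probe set, made with RMA according to the submitters' processing notes (version not given in the sources used here). The log2 scale was inferred from the range of the values. RMA brings arrays to a common distribution, so a shift shared by most genes would be removed. The platform annotation gave 1 symbol for 20380 probe sets, several for 691 and none for 1555, and 64 were controls. Probe sets without exactly 1 symbol were left out, and 0 symbols were updated.

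All 6 arrays entered 1 fit of 3 group means over 12393 genes with limma 3.58.1 in R 4.3.3 (lmFit and eBayes, 3 residual and 2.58 prior degrees of freedom). Files were read with the data.table package, version 1.17.8. P-values were adjusted by Benjamini-Hochberg over all genes of a comparison, with a threshold of 0.05. Every adjusted p is from limma, and SE is its moderated SE. The fit was tested on simulated data. Promoter matches and figures used Python 3.11.15, pandas 2.3.3 and matplotlib 3.10.9.

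All members were described. Of the lists on collagen folding, processing, receptors, regulators and cartilage matrix, genes past the threshold were named, up to 4 per list and comparison by smallest p. Of the cell type lists (endothelium, epithelium, leukocytes, enteric neurons and glia, mesothelium, skeletal and smooth muscle) counts and summed levels were given, and the 4 endothelial genes below the dim level were named. Of 44 known collagen genes in the class list 8 were not analysed here: Col24a1, Col27a1, Col8a2, Col6a4, Col6a5, Col6a6, Col23a1 and Col28a1. The members, classes and lists were chosen with earlier results of these data known. The labels call the samples biological replicates without naming cultures or litters, so p-values measure the spread between these samples, whose number limits the precision. Alternatives were a filter on dim genes, 2 other normalisations, 2 other choices of probe set, 2 variance models, a fit of 2 groups, a replicate block, other thresholds and leaving out each array.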

Additional observations from a re-analysis of the deposited data

How the results depend on the processing

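Of the 20 collagen calls 0 changed sign under any alternative, and Col1a2 in stomach against intestine passed under all 19. The filter on dim genes, median centring, the second quantile normalisation and robust variance kept every count within 1.5 times. At a threshold of 0.01 stomach had 3 collagen genes higher and 0 lower than intestine, Barx1 intestine had 0 higher than intestine and 1 lower than stomach. In these comparisons 512, 40 and 11 of all 12393 genes were called in either direction. At 0.1 the counts were 15 higher in stomach, and 4 higher and 2 lower in Barx1 intestine than in intestine. Col4a1 and Col4a2 stayed lower in stomach than in intestine. Against stomach the 7 lower genes of Barx1 intestine stayed, and Col5a3, Col11a1 and Col19a1 also passed as lower. There 3310, 1316 and 1516 of all 12393 genes were called in either direction, the last for Barx1 intestine against stomach. With an absolute log2 difference of 1 in addition to 0.05, 2 were higher and 0 lower in stomach, 0 higher in Barx1 intestine than in intestine and 3 lower than in stomach (2.23%, 1.04% and 0.992% of all genes passed that rule). For Barx1 intestine against intestine, the fit of 2 groups gave 0 higher, with 50 of all genes called in place of 493. That fit also lost Col16a1 between stomach and intestine, and Col5a1 and Col6a1 between Barx1 intestine and stomach. The lowest probe set of a gene lost the last 2 as well as Col4a5 and Col19a1 between stomach and intestine. For Barx1 intestine against intestine it gave 1 higher and 1 lower, the mean of all probe sets 1 lower, and a variance trend 3 lower. In that comparison these settings called 357, 529 and 1037 of all 12393 genes in either direction, in place of 493.

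Deviations of same-numbered arrays correlated at -0.216 for stomach and intestine, -0.0615 for stomach and Barx1 intestine and 0.203 for the 2 intestine groups. With 2 arrays a group these values cannot settle whether same-numbered arrays were paired. With the replicate number as a block 1 collagen gene was lower in Barx1 intestine than in intestine, where 267 of all genes were called in place of 493. The other counts stayed within 1.5 times, and of the calls named that of Col3a1 between stomach and intestine was lost (adjusted p = 0.0531). Crossing the stomach numbers, an alternative chosen after seeing the data, gave 1 higher and 2 lower in Barx1 intestine than in intestine (570 of all genes called). With it 5 of the 20 calls were lost. Over the fits leaving out 1 array each, stomach had 1 to 12 higher and 0 to 2 lower than intestine. Barx1 intestine had 0 to 1 higher and 0 to 1 lower than intestine, and 0 higher and 0 to 7 lower than stomach. The causes were not tested. With 2 arrays a group, differences under about the replicate spread were not detectable, and much larger ones could also miss the threshold. An example was Col18a1, at -1.32 between Barx1 intestine and intestine. Levels below the dim level give no measured difference.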
